A study of Mus musculus with 2 samples.

Results

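A set of 411 granule neuron nuclei that carried UMIs of Otx2os1, Mylk or Syt6 was examined among 11803 nuclei of the mouse cerebellum at postnatal day 1. The control library held 173 of them among 4857 nuclei and the library labelled cKO, called the cKO library below, held 238 among 6946. Control tissue came from littermates without Cre that carried Tox3f/f or Tox3f/+, and the cKO tissue came from Nestin-Cre;Tox3f/f mice, in which Nestin-Cre recombines the loxP-flanked Tox3 alleles in neural precursors and their progeny. Each library was made from 12 cerebella pooled before capture, so each group was 1 sample, no difference between the groups had a replicate check, and no test between them was possible.

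Members were chosen from measured UMIs (unique molecular identifiers, 1 per captured transcript). A nucleus needed at least 1000 detected genes and at most 5% mitochondrial UMIs. It needed at least 2 UMIs summed over the gate genes Otx2os1, Mylk and Syt6, and at least 2 summed over the granule lineage genes Neurod1, Neurod2, Etv1 and Pax6. At most 1 UMI was allowed over Svep1, Frem2 and Fgf5, at most 1 of Cntn2 and at most 1 over Gad1 and Gad2, and none over the division genes Mki67, Top2a and Kif11. Of the 1361 control and 1810 cKO-library granule nuclei outside division, 273 and 383 met the gate sum, and 173 and 238 met every criterion.

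Granule neurons are the small glutamatergic neurons of the cerebellar cortex. They arise from Atoh1-positive progenitors of the rhombic lip, divide in the external granule layer, leave the cell cycle and migrate inward past the Purkinje cells to the internal granule layer. Along this path early postmitotic genes such as Cntn2 give way to receptors, ion channels and adhesion molecules of the mature cell, and lobules differ in the transcription factors their granule cells express, with Otx2 known from the posterior lobules.

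In nuclei that passed the gene and mitochondrial criteria, the members made up 4.53% (3.90 to 5.24) of the control library and 3.83% (3.36 to 4.34) of the cKO library. Brackets here and below hold 95% counting intervals, which cover counting error only. Within the granule nuclei outside division the shares were 12.7% (11.0 to 14.6) and 13.1% (11.6 to 14.8), a ratio of cKO over control of 1.03 (0.847 to 1.27). Median depth was 4770 and 4680.5 UMIs per member. After each nucleus was thinned to 2000 UMIs and the whole rule was applied again, 8.02% of 848 and 7.22% of 1052 granule nuclei qualified. The ratio was 0.901 (0.641 to 1.27), with 17 and 22 shallower nuclei left out. This was 1 random draw, and 20 others gave a mean ratio of 0.967, with a range of 0.787 to 1.24. Other values below with the rule applied after thinning rest on that 1 draw. With the full gate, a difference in the share of members was thus not detectable at this depth. Without thinning, the ratio was 1.43 (1.10 to 1.88) with Otx2os1 out of the gate and 0.797 (0.614 to 1.03) with Syt6 out. The libraries held 22325208 and 33726533 UMIs over all nuclei, 21.4% and 10.5% of their barcodes had fewer than 1000 genes and were left out, and the 9 barcodes found in both libraries included no member.

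The gate genes encode unlike products. Otx2os1 (ENSMUSG00000098682) is a long noncoding RNA at chr14:48668708-48870683 of GRCm38 on the plus strand, and its first part overlaps Otx2 at chr14:48657677-48673819 on the minus strand. On the same build Mylk (chr16:34745210-35002420) encodes myosin light chain kinase, and Syt6 (chr3:103575231-103645569) encodes a synaptotagmin, a membrane protein of the family that couples calcium to vesicle fusion. Few members carried Otx2os1 together with Mylk. UMIs of both Otx2os1 and Mylk were found in 26 of 173 control members (15.0%) and in 41 of 238 members of the cKO library (17.2%), while Mylk was seen at all in 38 and 69. Otx2os1 was seen in 135 and 131 members, and Syt6 in 104 and 168. A name from Otx2os1 and Mylk thus covers a minority, and the nuclei are called members below, by the rule.

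The levels of the gate genes chose the members and are given as a description. Levels are in CPM, the UMIs of a gene per 1000000 UMIs summed over the nuclei of a group. In members Otx2os1 stood at 402 CPM in control and 269 in the cKO library, against 28.8 and 15.3 in the other granule nuclei outside division. The latter are 1111 and 1441 nuclei, made up of a Cntn2-high group, a group with the Svep1 genes and a remainder with neither, while nuclei with both gate and Svep1 genes, 77 and 131, were kept apart. Mylk stood at 99.5 and 144 CPM in members against 3.46 and 4.91, and Syt6 at 304 and 357 against 21.1 and 38.0. Microglia should lack all 3 genes. Of nuclei with at least 3 UMIs summed over 7 microglial genes, 80 of 615 in control (10.5% to 15.9%) and 100 of 1070 in the cKO library (7.67% to 11.3%) met the gate sum, at median depths of 6292 and 6051 UMIs, but a Csf1r UMI was found in only 13.2% and 16.7% of them. In a stricter gate chosen after seeing the data, where Csf1r was found in 85.4% and 71.6%, 0 of 41 met the gate sum, which allows a share of up to 7.32%, and 4 of 141 (2.84%) did, at 2987 and 2916 UMIs. Microglial nuclei below are those of the stricter gate unless stated. Granule nuclei met it in 20.1% and 21.2%, at 4574 and 4138 UMIs, and nuclei of all other kinds in 7.42% and 6.38%.

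Granule lineage genes that the rule did not use were present. Zic1 and Zic4, zinc-finger factors of the granule lineage, stood at 511 and 321 CPM in control members and 538 and 303 in the cKO library, close to the 512 and 298, and 567 and 309, of other granule nuclei. Rbfox3, the neuronal splicing factor NeuN, stood at 511 and 573 CPM. The 12 granule lineage markers, rule genes included, summed lower in members, at 5228 and 5681 CPM against 7505 and 6412 in other granule nuclei. Gabra6, the receptor subunit of the mature granule cell, gave only 3 and 8 UMIs in all members, and Slc17a7, its vesicular glutamate transporter, 7 and 17 UMIs. The earlier transporter Slc17a6 was at 188 and 159 CPM in members against 88.1 and 64.2 in other granule nuclei. Almost no Gabra6 was thus present in members, and Atoh1 was at 0 UMIs in the members of both libraries, which the depth limits to 3 UMIs per library.

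Of the named genes outside the gate, Kcnip4 had the largest ratio on the higher side in both libraries. It encodes an auxiliary calcium-binding subunit of Kv4 potassium channels, and lies at chr5:48389502-49524907. In members it reached 13041 CPM in control and 9498 CPM in the cKO library, against 1565 and 1577 CPM in other granule nuclei, ratios of 8.33 (8.11 to 8.57) and 6.02 (5.86 to 6.19). In microglial nuclei Kcnip4 stood at 947 and 1317 CPM, and at 1951 and 1905 CPM in the broader microglial gate. A Kcnip4 UMI was found in 59.8% and 52.5% of other granule nuclei and in 58.5% and 53.2% of microglial nuclei, so the presence of a Kcnip4 UMI alone was not read as expression, while 88.4% and 87.0% of members carried one. The levels in other granule nuclei were uneven, with up to 288 and 248 Kcnip4 UMIs in a single nucleus of the remainder. At 2000 UMIs per nucleus these shares were 39.1% and 38.8% in other granule nuclei, 44.4% and 42.5% in microglial nuclei and 82.0% and 79.4% in members.

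The channel partners of Kcnip4 did not stand as far apart. Kcnd2, the pore-forming Kv4.2 subunit, was at 2411 and 3636 CPM in members against 4346 and 4110 in other granule nuclei. Dpp6, another auxiliary subunit of the same channel, was at 1405 and 1603 CPM against 1444 and 1460. Kcnip1, a relative of Kcnip4, was at 26.0 and 36.9 CPM against 61.3 and 67.1. Of the 7 genes of the Kv4 complex with enough UMIs, Kcnip4 alone was at least 2-fold higher in members in both libraries and none was at least 2-fold lower in both.

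Over all genes, 69 of 10852 (0.636%) were at least 2-fold higher in members than in other granule nuclei in both libraries, and 243 (2.24%) were at least 2-fold lower. The rule chose the nuclei on these same counts, so they describe the gate and support nothing further. Beside Kcnip4 the leading genes included Ccdc141, Otx2, Alk, Myocd, Fign, Car10, Fgf10, Zfp804b, Mast4 and Kif26b. Grin2c, the NMDA receptor subunit that marks maturing granule cells, was at 37.9 CPM (35 UMIs) and 53.3 CPM (65 UMIs) in members against 7.64 and 8.39 in other granule nuclei. Its UMIs came from 21 of 173 and 47 of 238 members, so most members gave no Grin2c UMI at this depth.

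Of the leading genes, Otx2, the homeodomain factor, was at 150 and 93.4 CPM in members against 33.3 and 25.3 in other granule nuclei, ratios of 4.52 and 3.69. Alk, a receptor tyrosine kinase, was at 360 and 350 CPM against 45.1 and 98.6, ratios of 7.98 and 3.55. Car10, a catalytically inactive carbonic anhydrase relative that binds neurexins, was at 876 and 1293 CPM against 270 and 412. Fgf10, a secreted growth factor, was at 71.4 and 119 CPM against 18.2 and 41.8, and Myocd, a coactivator of serum response factor known from smooth muscle, had ratios of 3.24 and 5.45. All of these stood above the combined other granule nuclei in both libraries.

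**Figure D1:**
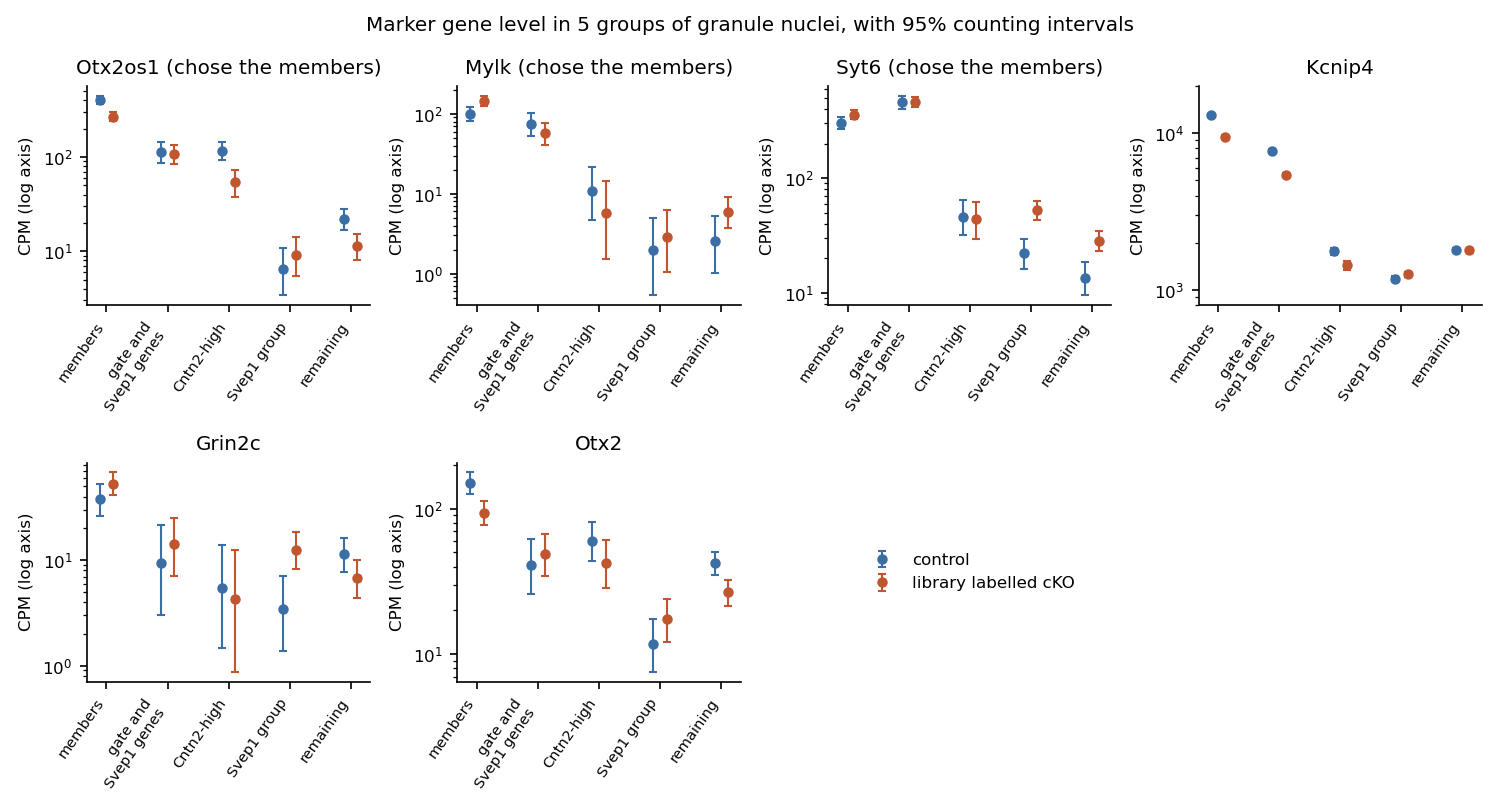
Level in CPM (log axes) of 6 marker genes in the members and 4 other groups of granule nuclei outside division, by library, as 1 point per library with its 95% counting interval. Otx2os1, Mylk and Syt6 chose the members. Kcnip4 stands at 13041 and 9498 CPM in members and between 1181 and 1796 CPM in the Cntn2-high, Svep1 and remaining groups.

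The lower side was led by genes of macrophages. Mrc1 and Stab1, scavenger receptors of tissue macrophages, gave 2 and 0 UMIs in control members and 7 and 2 in members of the cKO library, against 215 and 57, and 655 and 174, UMIs in other granule nuclei. Cd1d1, Eva1c, Fyb, Ccbe1 and Vrk2 were among those that followed, with 0 to 8 UMIs in the members of either library. Of the 7 microglial markers, Csf1r and Mrc1 were at least 2-fold lower in members in both libraries, and the list summed to 184 and 208 CPM in members against 262 and 355 in other granule nuclei. The 7 oligodendrocyte lineage markers summed to 56.3 and 31.9 CPM against 101 and 129, and the 9 astroglial markers to 696 and 796 CPM against 1433 and 2214. All 3 lists thus summed lower in members, and the part of RNA from such cells in the lower genes was not tested.

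Unipolar brush cells, another glutamatergic type of the rhombic lip, share Otx2 with the leading genes. Eomes, the T-box factor that defines them, stood at 40.0 and 36.9 CPM in members (37 and 45 UMIs) against 26.2 and 24.5 in other granule nuclei, and Lmx1a at 47.6 and 47.5 against 33.1 and 36.4. Sln was at 0 in members of both libraries. A UMI of Eomes or Lmx1a was found in 37 of 173 (21.4%, 15.5 to 28.3) and 37 of 238 (15.5%, 11.2 to 20.8) members, against 11.7% (9.87 to 13.7) and 10.1% (8.62 to 11.8) of other granule nuclei. Both genes together were found in 5.20% and 4.62% of members against 2.52% and 1.80%, so nuclei with these markers took a larger share of the members in both libraries. Without these nuclei the member share ratio was 1.08 (0.865 to 1.35), and on the log2 scale Kcnip4 was higher in members by 3.13 in control and 2.69 in the cKO library, against 3.06 and 2.59 with them. Otx2 also marks the choroid plexus, whose Ttr gave 1 UMI in the members of each library and whose Foxj1 gave none.

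The promoters of 15 genes, the gate genes and leading genes, were searched for TAATCC, the core that Otx-type homeodomains bind, and its reverse complement GGATTA, because Otx2 was among the leading genes. RefSeq windows of GRCm38.p6, from 250 bases before to 50 bases after a start, were found for 12 of the 15 genes, 19 windows in all. One window held the motif, that of Otx2 itself at chr14:48665060-48665359 on the minus strand, against 7.06% of all 32851 windows. It is shown for that match, in capitals, and the match describes the letters and not a bound site.
Otx2: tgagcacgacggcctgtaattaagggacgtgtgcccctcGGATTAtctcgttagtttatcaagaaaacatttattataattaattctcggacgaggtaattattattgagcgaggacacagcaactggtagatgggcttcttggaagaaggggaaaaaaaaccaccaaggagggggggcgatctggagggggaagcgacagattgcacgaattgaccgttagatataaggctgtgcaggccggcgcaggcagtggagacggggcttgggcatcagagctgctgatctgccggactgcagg

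The members were not uniform. In control, 77 members carried Otx2os1 with Mylk or Syt6, 58 carried Otx2os1 alone, 12 carried Mylk without Otx2os1 and 26 carried Syt6 alone. In the cKO library these classes held 86, 45, 28 and 79. Otx2os1 carriers were 135 of 173 control members, 78.0% (71.1 to 84.0), and 131 of 238 in the cKO library, within 48.5% to 61.5%, a ratio of 0.705 (0.550 to 0.904). The Syt6-alone class was 15.0% (10.1 to 21.2) and 33.2% (27.2 to 39.6) of members, a ratio of 2.21 (1.40 to 3.59). Thinned to 2000 UMIs, with 1 shallower member left out in each library, an Otx2os1 UMI was left in 53.4% and 37.3% of members and a Syt6 UMI in 38.7% and 47.0%. With the whole rule applied at 2000 UMIs 68 and 76 members remained and the Syt6-alone ratio was 1.19 (0.530 to 2.76), so that difference was not detectable at this lower depth.

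Kcnip4 differed between these classes. Its median over nuclei was 19423 CPM in control and 9006 in the cKO library where Otx2os1 came with Mylk or Syt6, 6832 and 5078 where Otx2os1 came alone, and 17035 and 15304 where Mylk came without Otx2os1. Where Syt6 came alone it was 695 and 814. That last class was split, with 11 of 26 and 20 of 79 nuclei at 0 UMIs, 9 and 25 at 5000 CPM or more, and a level of 6803 and 5290 CPM over all its UMIs. Over all members Kcnip4 spanned 0 to 49204 CPM in control and 0 to 48598 in the cKO library, with 20 and 31 members at 0 UMIs, and it reached at least 5000 CPM in 113 of 173 (65.3%) and 126 of 238 (52.9%).

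**Figure D2:**
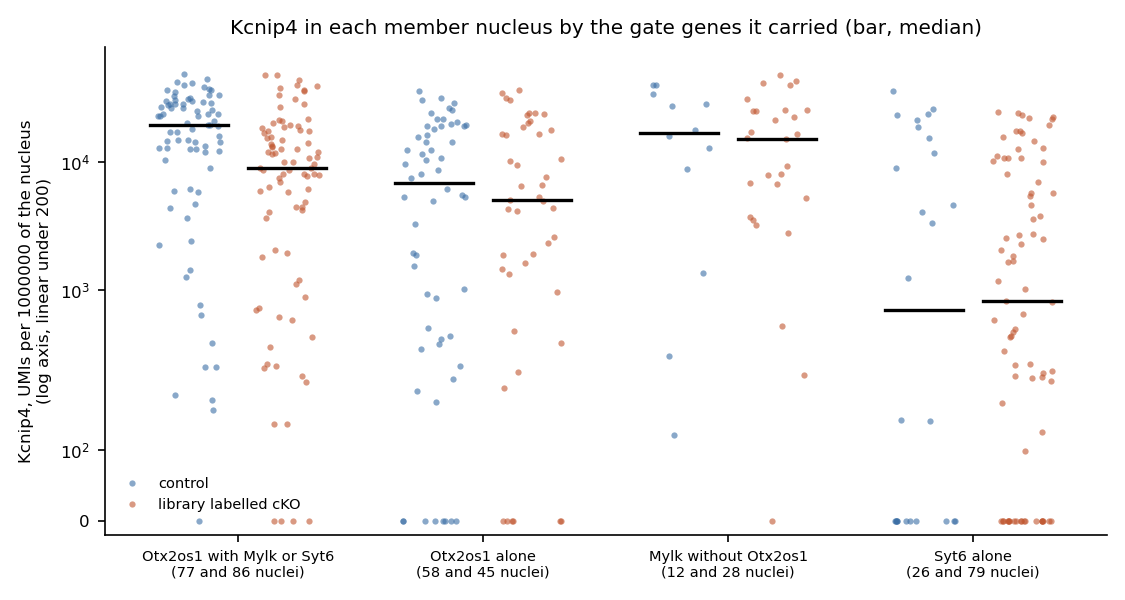
Kcnip4 in each of the 411 members (1 point per nucleus, UMIs per 1000000 of that nucleus, log axis that is linear under 200), by the gate genes the nucleus carried and by library, with the median as a bar. The Syt6-alone class has medians of 695 and 814, and the class with Otx2os1 and another gate gene has medians of 19423 and 9006.

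Other leading genes differed between the classes as well. Otx2 was at 162 and 113 CPM where Otx2os1 came with Mylk or Syt6 and at 51.3 and 38.8 CPM in the Syt6-alone class, and Alk at 520 and 508 against 205 and 177. Lingo2, an adhesion protein of the leucine-rich repeat family, ran the other way in the cKO library. There it stood at 1577 CPM where Otx2os1 came with another gate gene and at 2482 CPM in the Syt6-alone class. In control these values were 946 (855 to 1044) and 1032 (879 to 1205) CPM, with intervals that overlapped. Lmx1a stood at 95.5 and 122 CPM where Otx2os1 came alone and at 40.5 and 65.8 where it came with another gate gene, and gave 0 and 4 UMIs in the Syt6-alone class.

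Around the threshold the levels changed by degrees. Among granule nuclei with neither the Svep1 genes nor high Cntn2, those with a gate sum of 1, just outside, held Kcnip4 at 4163 and 4156 CPM, and those with a sum of 2, just inside, at 8279 and 6168 CPM. Nuclei with a sum of 0 were at 1292 and 1152 CPM, those with 3 at 10884 and 10063, and those with 4 or more at 17363 and 11821. Car10 ran from 192 and 277 CPM at a sum of 0 to 1079 and 1630 at 4 or more. There were 104 and 161 nuclei just outside and 62 and 83 just inside, and median depth grew from 3903 and 3584 UMIs at a sum of 0 to 4811 and 5070 at 4 or more.

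**Figure D3:**
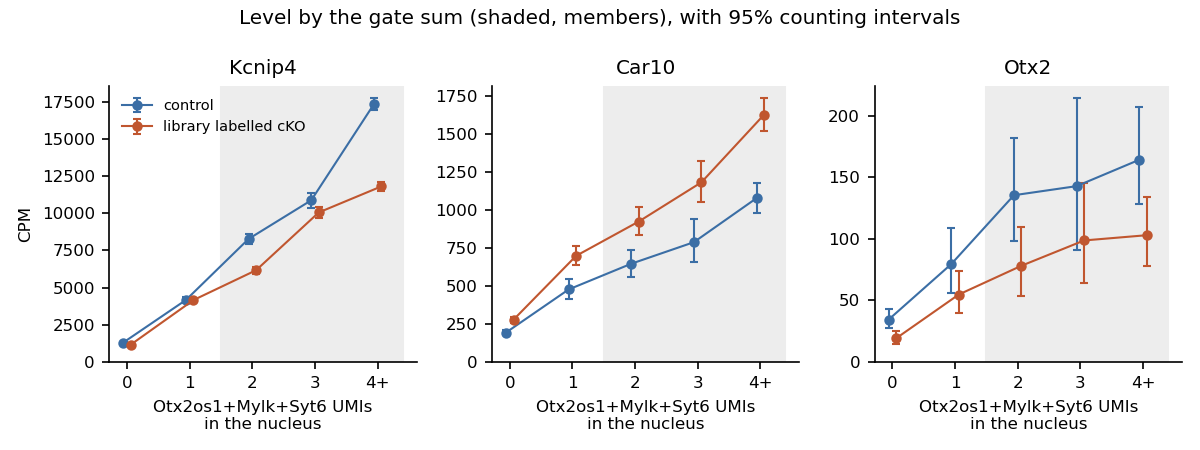
Level in CPM of Kcnip4, Car10 and Otx2 by the summed UMIs of Otx2os1, Mylk and Syt6 in the nucleus, for each library, with 95% counting intervals. The shaded sums of 2 or more are the members, and Kcnip4 is at 4163 and 4156 CPM at a sum of 1 and at 8279 and 6168 CPM at a sum of 2.

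Between the libraries, the members were compared gene by gene over their summed UMIs, 924389 in control and 1220574 in the cKO library. Of 6532 genes with at least 50 UMIs over both, 53 (0.811%) were at least 2-fold higher and 80 (1.22%) at least 2-fold lower in the cKO library, and the median log2 ratio was -0.04. These counts rest on size only and depend on the UMI minimum, with 229 and 336 genes at a minimum of 20 and 10 and 9 at 200. The rule named 12 genes on each side. With the member rule applied after thinning to 2000 UMIs, 10 of the 24 stayed past 2-fold, of which Spock1 and Dgkb were the only higher ones, and on the log2 scale Lingo2 then stood at 0.61 and Hcrtr2 at 0.69.

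**Figure D4:**
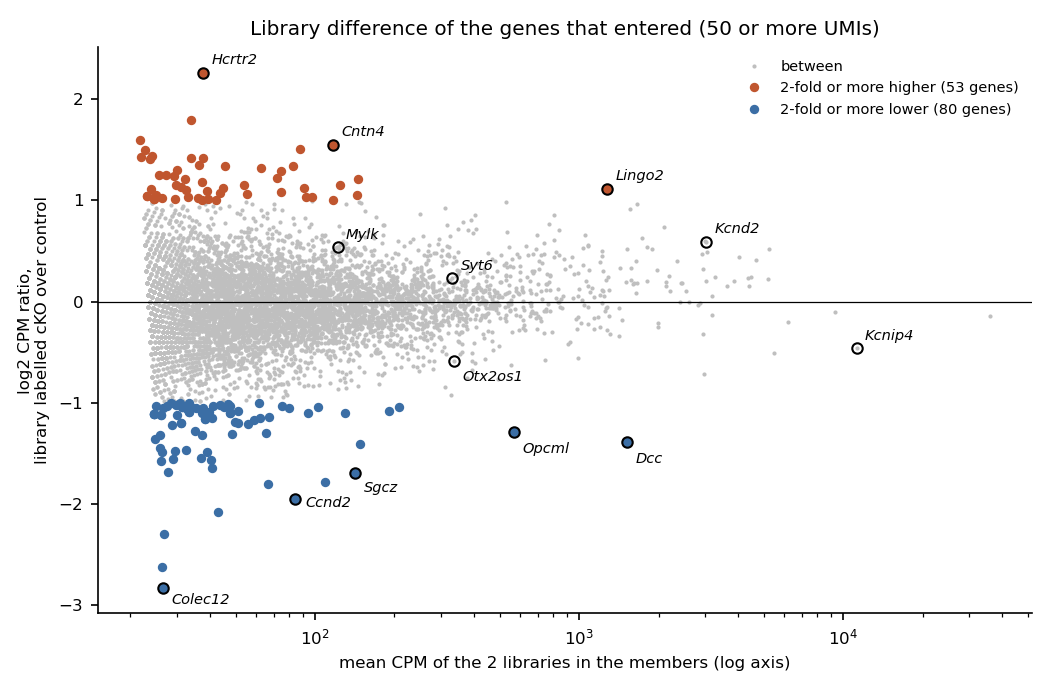
Each point is 1 of the 6532 genes with 50 or more UMIs in the members, by mean CPM of the libraries (log axis) and log2 ratio of the cKO library over control. The 53 genes at least 2-fold higher and 80 at least 2-fold lower are coloured, and the genes labelled by name are circled.

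Lingo2 had the most UMIs of the higher genes. Control members held 748 of its UMIs (809 CPM) and members of the cKO library 2140 (1753 CPM), for a ratio of 2.17 (1.99 to 2.36). Among Otx2os1 carriers alone the ratio was 1.76 (1.57 to 1.96), in the Syt6-alone class 2.40 (2.03 to 2.86), in the remaining granule nuclei 2.21 (2.08 to 2.36), in the Svep1 group 1.42 and in the Cntn2-high group 1.22. Lingo2 was thus higher in that library in each of these granule groups. In nuclei outside the granule gate the ratio was 1.19 (1.17 to 1.22), and in microglial nuclei it was 0.877 (0.762 to 1.01).

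Hcrtr2, an orexin receptor, had the largest ratio of the named genes. It gave 12 UMIs in 11 of 173 control members and 76 UMIs in 49 of 238 members of the cKO library, where it reached 62.3 CPM, for a ratio of 4.80 (2.59 to 9.69). In Otx2os1 carriers the ratio was 3.83 (1.93 to 8.28), while in the Svep1 group it was 1.24 (0.916 to 1.70) and in the remaining granule nuclei 1.25 (0.891 to 1.76). Calb1, a calcium buffer known from Purkinje cells, gave 14 and 64 UMIs, a ratio of 3.46 (1.92 to 6.69), against 1.29 in other granule nuclei and 2.10 in microglial nuclei. Car8 and Itpr1, also abundant in Purkinje cells, had ratios of 1.87 and 1.83, and the 10 Purkinje markers summed to 1318 and 1301 CPM, with Pcp2 at 2 and 14 UMIs. The part of Purkinje RNA in these genes was not tested.

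Cntn4, a contactin of the axon surface, gave 55 and 213 UMIs, a ratio of 2.93 (2.17 to 4.02). Of the 213 UMIs, 132 came from the Syt6-alone class and 45 from a single nucleus, and in Otx2os1 carriers the ratio was 1.74 (1.16 to 2.64). Spock1, a secreted proteoglycan, gave 81 and 248 UMIs with a ratio of 2.32 in all members and 1.83 in Otx2os1 carriers, and 96 of its UMIs came from the Syt6-alone class against 3 in control. Shisa6, an auxiliary subunit of AMPA receptors, gave 42 and 158 UMIs, a ratio of 2.85 (2.02 to 4.11) and 3.71 in Otx2os1 carriers. It was also higher in the Svep1 group (1.64), the remaining granule nuclei (1.70) and microglial nuclei (3.76).

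The other named higher genes were Tafa2, Plpp4, Cntnap5b, Caly, Rasgrf1 and Dgkb, with ratios between 2.07 and 2.67. With the rule applied after thinning, Tafa2 turned direction, with a log2 ratio of -0.50, and Cntnap5b was at 0.07. Plpp4, a lipid phosphatase, gave 40 and 123 UMIs with a ratio of 2.33, against 1.07 (0.863 to 1.34) in other granule nuclei. Dgkb, a diacylglycerol kinase, gave 53 and 152 UMIs with a ratio of 2.17, and 2.78 in Otx2os1 carriers. Cntnap5b, a contactin-associated cell adhesion protein, gave 87 and 238 UMIs with a ratio of 2.07, and 3.67 and 2.62 in the Cntn2-high and remaining groups. No difference in ratio between groups of nuclei was tested.

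Dcc had the most UMIs of the lower genes. It encodes the netrin receptor that guides axons and migrating neurons. Control members held 2035 of its UMIs (2201 CPM) and members of the cKO library 1029 (843 CPM), for a ratio of 0.383 (0.355 to 0.413). Where Otx2os1 came alone Dcc was at 4277 and 1691 CPM, and where it came with another gate gene at 1347 and 872. The ratio was 0.432 in all Otx2os1 carriers, 0.380 in the Syt6-alone class, 0.349 in the Svep1 group and 0.364 in the remaining granule nuclei. The Cntn2-high group stood nearer to 1 at 0.797 (0.762 to 0.835), and microglial nuclei at 0.730 (0.629 to 0.849).

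Ccnd2, the D-type cyclin of neural progenitors, gave 123 and 42 UMIs, a ratio of 0.259 (0.178 to 0.370), with 114 and 28 of them in Otx2os1 carriers. Gli2, a transcription factor of the Hedgehog pathway that drives progenitor division, gave 41 and 11 UMIs, a ratio of 0.203 (0.0942 to 0.403), and 0.397 in the remaining granule nuclei. Gli2 was at 0.982 (0.659 to 1.46) in the Cntn2-high group and 1.24 (0.825 to 1.86) in the Svep1 group, and both intervals held 1. Hist1h2ap, a replication-dependent histone, gave 42 and 9 UMIs, a ratio of 0.162 (0.0695 to 0.338). It was lower in the Cntn2-high, Svep1 and remaining groups too, at 0.238 to 0.311, and in nuclei outside the granule gate, at 0.271, so the difference was not limited to the members.

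Opcml, a GPI-anchored adhesion molecule, gave 742 and 401 UMIs, a ratio of 0.409 (0.362 to 0.463), 0.681 (0.576 to 0.803) in the Cntn2-high group, 0.890 (0.788 to 1.00) in the Svep1 group and 1.29 (1.22 to 1.37) in the remaining granule nuclei. Sgcz, a sarcoglycan, gave 201 and 82 UMIs, a ratio between 0.236 and 0.401, against 1.04 (0.769 to 1.40), 0.862 (0.755 to 0.983) and 1.19 (1.10 to 1.29) in these groups. For both the ratio was above 1 in the remaining group. Ebf3, a neuronal transcription factor, gave 199 and 99 UMIs with a ratio of 0.377, close to the 0.378 of the remaining granule nuclei. Colec12, Mdga1, Nell1, Tnr and Nkd1 completed the named lower genes, with ratios between 0.141 and 0.338. In microglial nuclei Mdga1 was at 0.0853 and Nell1 at 0.315, so both were lower there too.

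**Figure D5:**
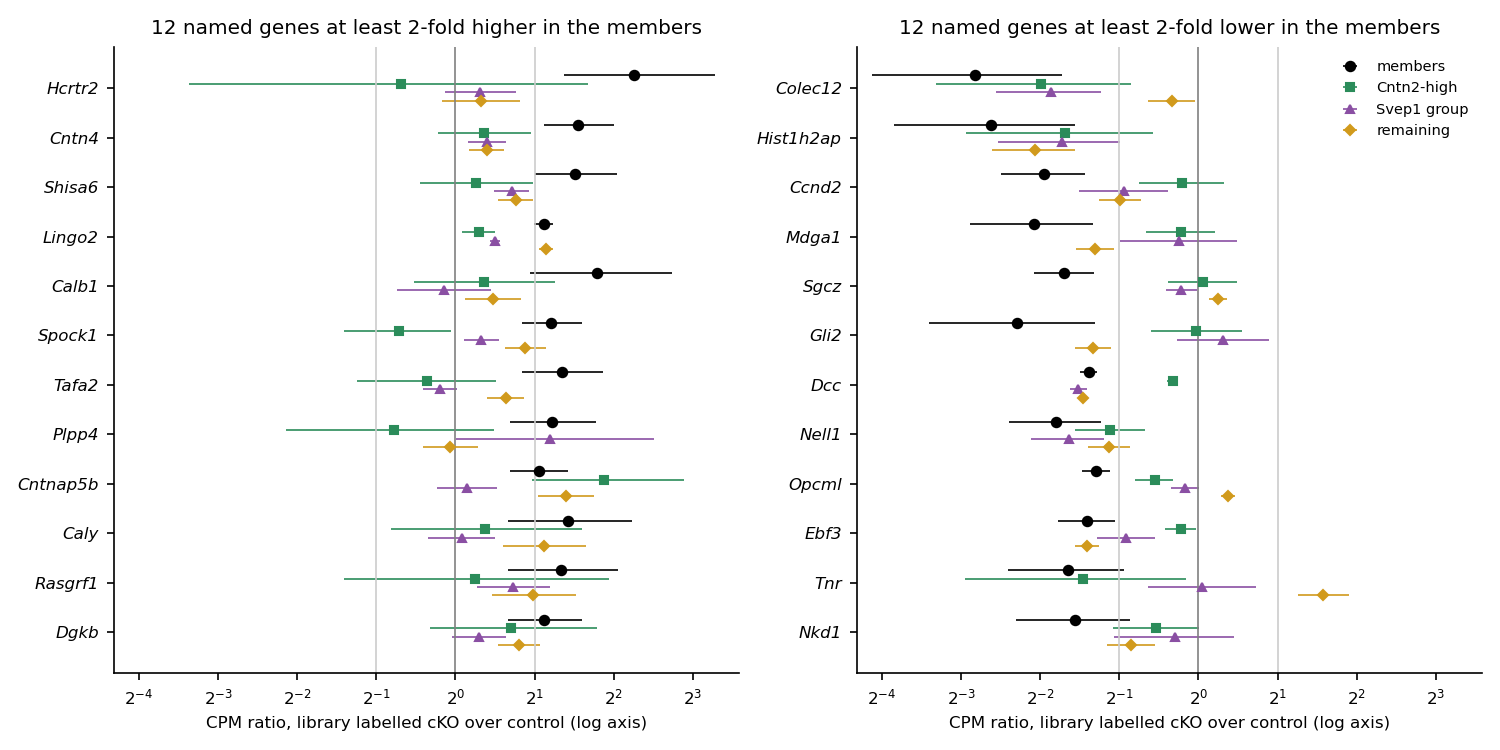
CPM ratio of the cKO library over control (log axis) for the 24 named genes in the members and in the Cntn2-high, Svep1 and remaining groups of granule nuclei, with 95% counting intervals and lines at ratios of 0.5, 1 and 2. Hcrtr2 is at 4.80 in members and between 0.623 and 1.25 in the other groups, and Opcml is at 0.409 in members, 0.681 in the Cntn2-high group and 1.29 in the remaining group.

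The gate genes chose the members, so their ratios within members are constrained by the rule and are given as a description. In members Otx2os1 was lower in the cKO library, with a ratio of 0.668 (0.574 to 0.777), and so was Otx2, at 0.621 (0.481 to 0.801). Otx2os1 was also lower in the Cntn2-high group (0.464) and the remaining granule nuclei (0.514), while the Svep1 group was at 1.43 (0.672 to 3.16). Mylk had a ratio of 1.45 (1.12 to 1.89) and Syt6 of 1.18 (1.01 to 1.37), which turned below 1 with the rule applied after thinning. Kcnip4 had a ratio of 0.728 (0.710 to 0.747) in members, 0.770 in Otx2os1 carriers and 0.778 in the Syt6-alone class, against 0.996 (0.960 to 1.03) in the remaining granule nuclei. Grin2c had a ratio of 1.41 (0.919 to 2.19) and Eomes of 0.921 (0.583 to 1.46), and both intervals held 1.

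Gene lists were read against all 6532 genes, of which 2938 (45.0%) had a ratio above 1. Genes of the member rule were kept in the lists that hold them, so the rule constrained part of those counts and medians. Of 22 glutamate receptor genes, 18 had a ratio above 1, 0 were at least 2-fold apart either way and the median log2 ratio was 0.41. Grin2a, an NMDA receptor subunit of maturing neurons, was at 1.98 (1.55 to 2.55), the metabotropic receptors Grm8 and Grm4 at 1.95 and 1.78, and the kainate receptor gene Grik3 at 0.570 (0.460 to 0.705). Of 9 GABA-A receptor subunits 6 were above 1, with a median of 0.28, and Gabrb1 was at 1.69. Of 10 synaptotagmins, the gate gene Syt6 included, 8 were above 1, with a median of 0.29, and Syt1, the calcium sensor of fast release, was at 1.25 (1.19 to 1.32).

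Of 30 cadherins, protocadherins, contactins and their partners, 20 had a ratio above 1 and 4 were at least 2-fold higher, namely Cntn4, Cntnap5a, Cntnap5b and Pcdh10, with a median log2 ratio of 0.35. Of 18 synaptic adhesion genes 13 were above 1, with a median of 0.18 and Lingo2 as the only gene past 2-fold. Of 23 potassium channel genes 16 were above 1, with a median of 0.14. Kcnd2 was at 1.51 (1.43 to 1.59), opposite in direction to Kcnip4, and Kcnn3, a calcium-activated channel, at 2.15 (1.26 to 3.85). Of 16 sodium and calcium channel genes 11 were above 1, with a median of 0.22, among them Cacna1g at 1.53, while Cacna1d was at 0.698.

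The guidance genes were split. Of 32, 15 were above 1 and 17 below, with a median log2 ratio of -0.01. Dcc and Slit2, a ligand of the Robo receptors, were at least 2-fold lower, with Slit2 at 0.482 (0.346 to 0.668), and Nrp1, a semaphorin co-receptor, was higher at 2.09 (1.39 to 3.21). Robo1 was at 0.558 (0.475 to 0.654). Of 9 early postmitotic genes 7 were below 1, with a median of -0.20. Dcc and Igfbpl1, the latter at 0.454 (0.315 to 0.650), were at least 2-fold lower. The early postmitotic list also holds Cntn2, which the rule held low. Of 6 progenitor genes 5 were below 1 and the median was -0.32. The 16 genes of mature granule cells, the rule gene Etv1 among them, had 12 with enough UMIs. Of these 9 were above 1, with a median of 0.20.

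Other neuronal lists followed. Of 11 granule lineage genes 7 were above 1 and 0 were past 2-fold, with a median log2 ratio of 0.11. That list holds Neurod1, Neurod2, Etv1 and Pax6, which chose the members. Reln, the secreted layering signal, was at 1.16 (1.08 to 1.24). Of 35 neuronal transcription factors 16 were above 1, with a median of -0.07, and Zfhx3 (12 and 42 UMIs) was at 2.65 (1.37 to 5.53). The 10 genes of the myosin light chain module, the gate gene Mylk included, had 3 above 1, a median of -0.02 and none past 2-fold. The 6 genes of the Kv4 complex had 3 above 1 and a median of 0.01, and the 5 heat shock genes had 1 above 1 and a median of -0.11. Of 6 factors known to differ between anterior and posterior lobules 3 were above 1, with a median of 0.06. The study followed 6 progenitor-enriched genes in these libraries, of which 3 had enough UMIs. Barhl1 was at 0.872, Btbd11 at 0.771 and Rnf220 at 1.24, and since the list was chosen with these samples in view it is no independent evidence of its direction.

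Lists of other cell types had few genes with 50 UMIs in members. Of 7 Purkinje genes 4 were above 1, with a median log2 ratio of 0.07, and of 7 astroglial genes 6 were above 1, with a median of 0.25. Of 3 microglial genes 1 was above 1, with a median of -0.15, and of 5 unipolar brush cell genes 1, with a median of -0.12. Kit, of the inhibitory interneuron list, was at 1.07, Slc17a6 and Meis2, of the cerebellar nuclei list, at 0.844 and 0.833, and Otx2 was the only gene of the choroid plexus list. Of the cell cycle list Mcm7, a replication helicase subunit, was at 0.990 and Hist1h2ap at 0.162, and Svep1, which the rule held low, was at 2.01. No oligodendrocyte, vascular or immediate early gene reached 50 UMIs. Of 5 sex-linked genes 3 were above 1, with a median of 0.01.

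Tox3 itself gave 41 UMIs in control members and 51 in the cKO library, 44.4 and 41.8 CPM, a ratio of 0.942 (0.612 to 1.46). In the Cntn2-high group the ratio was 2.73 (1.95 to 3.88). Where in the gene these UMIs arose was not examined, so the counts do not test a deletion of part of it. They do not check the label, and the library is called by its label throughout. The paper reported near-complete deletion of Tox3 in mutant cerebella of the same age, measured by reverse transcription and qPCR. Tox and Tox4 were at 0.926 (0.582 to 1.48) and 0.700 (0.486 to 1.01).

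The share of nuclei with sex-linked UMIs differed between the pools. Xist, expressed from the inactive X chromosome of females, was found in 54.9% (47.2 to 62.5) of control members and 71.0% (64.8 to 76.7) of members of the cKO library, and in 58.0% and 68.8% of other granule nuclei. Among nuclei with an Xist UMI the member share ratio was 1.11 (0.860 to 1.45), and of 4975 genes 58 were at least 2-fold higher and 80 lower. Among those without Xist but with a UMI from the Y chromosome it lay between 0.683 and 1.44, with 63 higher and 36 lower of 2625 genes. Sex and genotype cannot be told apart in the pooled values.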

How the data were processed

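Single-nucleus RNA libraries were made by the authors with 3′ droplet chemistry from nuclei of 12 pooled, snap-frozen cerebella per group at postnatal day 1. The deposited values are raw counts, UMIs per gene and nucleus over 32285 genes, made by the authors with Cell Ranger 7.0.1 on mm10 (GRCm38) per the labels. Whether intronic reads were counted is not given in the sources used here. Free RNA was not removed, since the empty droplets that SoupX needs were not used here.

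Nuclei with at least 1000 genes and at most 5% mitochondrial UMIs were kept. UMIs were summed over the nuclei of a group in each library and expressed as CPM. Because each group was 1 library, no test was run and no p-value is given. Shares carry exact Clopper-Pearson intervals, levels exact Poisson intervals, and ratios of levels exact conditional binomial intervals, all at 95% and for counting error only. Ratios of shares carry the same conditional binomial interval, which treats the counts as Poisson and is only approximate for shares. For a count of 0 the limit was taken as 3 counts. A gene entered the library comparison at 50 UMIs over both libraries. For members against other granule nuclei it entered at 50 over both sides in each library, and was named only with 50 on the higher side of each. At least 2-fold apart was the rule of size. Named were the 12 genes on each side of the library difference whose interval bound nearest 1 lay farthest from it, leaving out unnamed gene models, and the 12 highest and 8 lowest against other granule nuclei by the smaller change of both libraries, with the gate genes, Kcnip4, Grin2c, Lingo2, Tox3, Atoh1, Otx2 and up to 4 genes of each of 32 lists. Genes picked out by carrier class or as markers of other cells were chosen after their values were seen. The members and lists were chosen with earlier results of these data known. Positions are from GENCODE release M21 for GRCm38.

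The alternatives changed the gene minimum, the gate, the depth, the scaling and the UMI minimum, or removed doublets. The number removed was set beforehand from the size of each library, at 189 control and 386 cKO-library nuclei. Those with the highest Scrublet scores (scanpy 1.11.5) were taken, 12 and 11 of them members. Splits by sex and by unipolar brush cell genes were also tried. Values within Otx2os1 carriers, without the Syt6-alone class, over 20 thinnings and in a stricter microglial gate (at least 3 of 6 microglial genes detected and at most 1 granule lineage UMI) were added after seeing the data. Doublets were kept in the main values. Some items are not reported here. The interval code was tested on simulated data. Python 3.11.15, numpy 2.4.6, scipy 1.17.1, pandas 2.3.3 and matplotlib 3.10.9 were used.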

Additional observations from a re-analysis of the deposited data

Results flagged for a closer look

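Tnr, which encodes the extracellular matrix protein tenascin-R, moved in opposite directions between the libraries in different granule nuclei. In members it gave 57 UMIs in control and 24 in the cKO library, a ratio of 0.319 (0.189 to 0.522), while in the remaining granule nuclei it gave 102 and 393 UMIs, a ratio of 2.97 (2.38 to 3.73). The difference between these groups was not tested. In members that carried Otx2os1 the Tnr ratio was 0.602 (0.329 to 1.07), and in the Syt6-alone class it was 0.0540, from 21 and 3 UMIs. Over 18 alternative settings the log2 ratio in members ran from -2.21 to -0.54 and stayed past 2-fold in 13. These include the UMI minimums, which could not change it.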

How the results depend on the processing

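No paired analysis was possible because each group was 1 library. The member share ratio of 1.03 was 1.43 (1.10 to 1.88) with Otx2os1 left out of the gate and 0.797 (0.614 to 1.03) with Syt6 left out. It lay between 0.901 and 1.11 under the other settings. The Syt6-alone ratio of 2.21 was 1.19 with the rule applied after thinning to 2000 UMIs and lay between 1.59 and 3.02 otherwise. The 53 genes at least 2-fold higher in the cKO library became 229 at a minimum of 20 UMIs and 10 at 200, and 43 to 69 otherwise. The 80 lower became 336 and 9 at these minimums, 44 at a gate sum of 3 or more, 44 with Otx2os1 left out, 36 with the rule after thinning, 35 with the members thinned and 36 in nuclei with Y-chromosome UMIs and no Xist, and 54 to 85 otherwise. Fewer genes entered under each of these settings except the minimum of 20. Against other granule nuclei the 69 higher genes became 44 in the nuclei with Y-chromosome UMIs and no Xist, and the 243 lower became 118 there, 378 at a gate sum of 3 or more and 417 with Otx2os1 left out. The cause of these changes in the last comparison was not tested. Of the 24 named genes, all with a value kept their direction under each setting except the rule after thinning. There Tafa2 reversed (log2 ratio of -0.50) and 10 stayed past 2-fold. The minimums of 20 and 200 UMIs could not change these ratios and are no check of them. The lower gene minimum per nucleus left the 53 and 80 genes of 6532 and the Syt6-alone ratio of 2.21 unchanged, so it added little to this check. Over all settings, 830 values stayed within their range. For log2 ratios of single genes, these 24 included, this was the counting interval, and for list medians a fixed margin. Beyond it, 190 moved and 1, that of Tafa2, was counted as reversed. A reversal was counted only for list medians and for genes at least 2-fold apart in the main values. Smaller ratios that crossed 1, such as that of Syt6 after thinning, were not counted as reversed. The 830 include single-gene values at the minimums of 20 and 200 UMIs, which could not move.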

Other observations

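A further group of granule nuclei held UMIs of both the gate genes and the Svep1 genes and was left out of the members. It numbered 77 in control and 131 in the cKO library, 5.66% and 7.24% of granule nuclei outside division, a ratio of 1.28 (0.958 to 1.72). In these nuclei Kcnip4 stood at 7716 and 5383 CPM, below the members and above every other granule group. Syt6 stood at 459 and 462 CPM, above the 304 and 357 of members, while Otx2os1 at 112 and 107 CPM and Grin2c at 9.33 and 14.2 CPM stood below them. Among these nuclei Dcc had a ratio of the cKO library over control of 0.652 (0.567 to 0.749), Lingo2 of 1.43 (1.32 to 1.54) and Kcnip4 of 0.698 (0.668 to 0.729).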
